A study of Mus musculus with 6 samples.

Results

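The proteasome genes described here are the 47 of 24391 genes in the deposited count tables whose symbols are Psma, Psmb, Psmc, Psmd, Psme, Psmf or Psmg followed by a number, without the interferon-inducible catalytic subunits Psmb8, Psmb9 and Psmb10. Of these 47 genes, 14 encode the constitutive 20S core, 17 the 19S regulatory particle, 7 assembly factors, 5 activators and 1 an inhibitor. The remaining 3 are the tissue-restricted core genes Psma8 and Psmb11 and Psmc3ip, whose symbol fits the pattern although it encodes a cofactor of meiotic recombination. The members were chosen by their symbols, with no threshold on a measured value.

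The proteasome degrades proteins that carry ubiquitin chains. Its barrel, the 20S core, has outer rings of alpha subunits that gate the entry and inner rings of beta subunits, of which Psmb5, Psmb6 and Psmb7 hold the catalytic sites. The 19S particle caps the barrel, with a lid and ubiquitin receptors that take up the substrate and a ring of ATPases that unfolds it. Interferons are known to induce alternative catalytic subunits and the PA28 alpha and beta activator, whose products favour peptides for antigen presentation.

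RNA was sequenced from tumour cells of the iBIP mouse melanoma model, 3 libraries labelled KMT2D WT and 3 labelled KMT2D KO. All of these cells came from mice with Tyr-CreERT2 (a tamoxifen-activated Cre driven by the tyrosinase promoter of the pigment lineage), Rosa26-rtta, TetO-BRAFV600E and floxed tumour suppressor alleles, among them INK/ARFL/L, on a mixed FVB and B6 background, so the controls carry the BRAF transgene and these floxed alleles too. KMT2D WT cells were from iBIP;KMT2D+/+ mice and KMT2D KO cells from iBIP;KMT2DL/L mice, where L is a floxed allele of a histone H3 lysine 4 methyltransferase gene. The mice received doxycycline, which switches on the transgene, and 4-OHT on the ears, and the isolated ear tumour cells were kept in DMEM. The labels give no age, passage or time, and their extraction text names cerebellar tissues although the other fields name tumour cells. Nothing in them says that a group's libraries are separate cultures, tumours or mice. The p-values then measure only how libraries vary, which may be technical. A difference between genotypes and a difference between the tumours of origin cannot be told apart.

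KMT2D WT libraries held 43168605 to 59360068 counted fragments, KMT2D KO libraries 55594979 to 79718782. The Kmt2d count over the whole gene gave 79.7, 87.6 and 100.7 CPM (counts relative to library size) in KMT2D WT against 73.0, 69.3 and 79.8 CPM in KMT2D KO. The gene was called lower (log2 fold change -0.27, SE 0.08, adjusted p = 0.0075 by edgeR), with KMT2D WT replicate 1 just below KMT2D KO replicate 3, but a whole-gene count cannot check the loss of a floxed part. The melanocyte markers Tyr, Tyrp1 and Dct had group means of at most 0.077 CPM, and Mitf had means of 15.4 and 53.2 CPM, so the pigment enzymes that define melanocytes were nearly absent in both groups while Mitf was not. Of 9 fibroblast markers, 7 were called higher and 2 lower in KMT2D KO, and their summed level lay at 5790 to 6007 CPM (KMT2D WT) and 21590 to 22612 CPM (KMT2D KO). The 11 immune markers summed to 10.4 to 16.1 CPM (KMT2D WT) and 3.20 to 3.94 CPM (KMT2D KO), and the 5 endothelial markers to 1.05 to 1.26 CPM and 0.395 to 0.573 CPM. The 8 cerebellar markers summed to 1.01 to 1.05 CPM (KMT2D WT) and 3.13 to 4.85 CPM (KMT2D KO), and both that were tested, Cbln3 and Syt1, were called higher. The 6 keratinocyte markers summed to 11.2 to 15 CPM (KMT2D WT) and 16.2 to 17.6 CPM (KMT2D KO), with Trp63 called higher and Dsp lower. The part of these marker differences in the proteasome results was not tested, and in bulk RNA fewer cells of a type and less RNA per cell cannot be told apart.

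Genes were compared by edgeR's quasi-likelihood F test and called where the p-value adjusted by Benjamini-Hochberg over 14579 tested genes was below 0.05. Adjusted p-values below are from this fit, and a negative log2 fold change means a lower level in KMT2D KO. Most tested genes differed between the groups: 71.0% were called, 35.4% higher and 35.5% lower, 74.3% had KMT2D WT and KMT2D KO libraries that did not overlap, and 26.8% were called with an absolute log2 fold change above 1.

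Against this background the proteasome genes changed in a narrow range and mostly downward. Of the 47 members 45 were tested, and 33 of them (73.3%) were called, close to the 71.0% of all genes. Lower calls were 25 of 45 (55.6%) and higher calls 8, beside 35.5% and 35.4% of all genes. Higher calls were 5 without KMT2D KO replicate 1 or with library size alone, and 4 with chromosome medians removed. The log2 fold changes ran from -0.97 to 0.98 with a median of -0.22, while all tested genes had a median of 0.00. No member passed an absolute value of 1 in this fit, while 26.8% of all genes were called and passed it. Psmb8, Psmb9 and Psmb10, which the rule left out, had log2 fold changes of 2.79, 2.84 and 1.23. The narrow range therefore depends in part on leaving them out. The libraries of the groups did not overlap for 28 of the 45, beside 74.3% of all genes. Of the 33 calls, 19 were called in the same direction in each of 15 alternative analyses. Proteasome genes together took 0.479% to 0.506% of a KMT2D WT library's counts and 0.374% to 0.406% of a KMT2D KO library's.

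**Figure D1:**
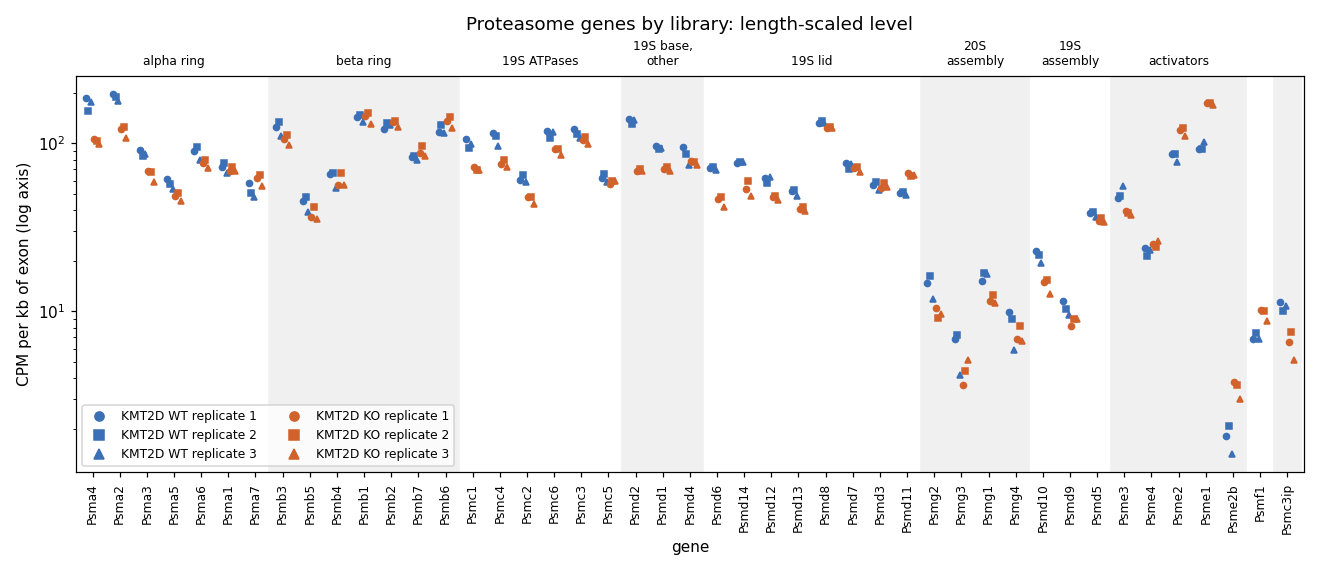
Level of each tested member in each library, in CPM per kb of exon on a log axis, grouped by role, with blue symbols for KMT2D WT, orange for KMT2D KO and a symbol shape for each replicate number. Core and 19S genes lie in one band with assembly factors below it, and the orange points of Psme1, Psme2 and Psme2b stand clear above the blue ones.

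Levels per length differed by role. In KMT2D WT the means of the 14 constitutive core genes lay between 44.0 CPM per kb (Psmb5) and 188 (Psma2), and those of the 17 regulatory particle genes between 50.3 (Psmd11) and 135 (Psmd2). Assembly factors lay lower, from 6.07 CPM per kb (Psmg3) to 38.0 (Psmd5).

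Chromosomes differed in their median, and 35 of the 45 members lay below the median of the other tested genes of their chromosome. The chromosomes that carry members ranged from a median log2 fold change of -0.54 (chromosome 13) to 0.28 (chromosome 2), so the median is given beside the values it bears on, and what shifts whole chromosomes was not tested.

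Most genes of the alpha ring fell. Of its 7 genes, 5 were called lower, Psma7 was called higher and Psma1 was not called (log2 fold change -0.04), with a median of -0.24. These subunits form the outer rings and the gate of the barrel. Psma4 (mm9 chromosome 9, 54798666 to 54805837) gave 205, 170.3 and 192 CPM in KMT2D WT against 116, 114 and 108 CPM in KMT2D KO. All KMT2D KO libraries lay far below all KMT2D WT libraries, and the log2 fold change was -0.74 (SE 0.07, adjusted p = 1.1e-07) beside a chromosome median of -0.30. Psma2 (chromosome 13, 14705509 to 14717940) gave 187, 178 and 169 against 115, 119 and 101 CPM, again without overlap. Its log2 fold change of -0.67 (adjusted p = 3.1e-07) stood beside the chromosome median of -0.54, and with that median removed it was -0.13 and no longer called (adjusted p = 0.092). Psma3, Psma5 and Psma6 fell by 0.43, 0.24 and 0.22 on the log2 scale, and the libraries of Psma6 overlapped. Psma6 was not called without KMT2D WT replicate 2, without KMT2D KO replicate 3 or with the chromosome median removed.

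Psma7 went against its ring. This alpha subunit (chromosome 2, 179771072 to 179777169) gave 92.9, 80.0 and 76.3 CPM in KMT2D WT against 98.7, 102 and 88.7 CPM in KMT2D KO, with overlap between KMT2D WT replicate 1 and KMT2D KO replicate 3. The log2 fold change was 0.22 (SE 0.08, adjusted p = 0.019), below the chromosome 2 median of 0.28, and it was -0.06 with that median removed. The call was also lost with scaling by library size alone, which shifts the median of all genes by -0.11, and without KMT2D WT replicate 2, KMT2D KO replicate 1 or KMT2D KO replicate 2.

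The beta ring, which holds the catalytic sites, showed no common direction in its calls. Psmb3 and Psmb5 were called lower, Psmb6 higher and 4 genes were not called, with a median of 0.01, and the libraries of the groups overlapped for all 7. Psmb3, a structural beta subunit on chromosome 11, gave 91.5, 97.6 and 80.3 CPM in KMT2D WT against 77.5, 81.3 and 71.1 CPM in KMT2D KO. Its log2 fold change was -0.23 (SE 0.07, adjusted p = 0.012), and only KMT2D WT replicate 3 fell within the range of the KMT2D KO libraries. The call was lost without KMT2D WT replicate 2 or KMT2D KO replicate 3. Psmb5, which carries the chymotrypsin-like activity, gave 39.5, 41.6 and 33.8 against 31.7, 36.6 and 30.7 CPM, and its log2 fold change was -0.22 (adjusted p = 0.041). Its call was lost with the chromosome median removed and without KMT2D WT replicate 1 or 2 or KMT2D KO replicate 1 or 3. Psmb6, which carries the caspase-like activity (chromosome 11, 70338859 to 70341360), gave 120.2, 132 and 119.8 against 141, 149 and 128 CPM. KMT2D WT replicate 2 lay above KMT2D KO replicate 3, and the log2 fold change of 0.17 (SE 0.06, adjusted p = 0.029) was not called with library size alone, with the chromosome median removed, or without KMT2D WT replicate 1 or KMT2D KO replicate 1 or 2. Psmb7, which carries the trypsin-like activity, had a log2 fold change of 0.12 (adjusted p = 0.10), and Psmb1, Psmb2 and Psmb4 had 0.01, 0.05 and -0.06. With library size alone Psmb1 and Psmb2 turned to -0.10 and -0.06, and with chromosome medians removed Psmb1, Psmb2 and Psmb7 turned negative and Psmb4 positive (0.01).

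The summed levels of the rings showed the same split. Alpha ring genes summed to 758, 707 and 687 CPM per kb in KMT2D WT and to 553, 563 and 506 in KMT2D KO, 24.6% lower on the means of 717 ± 36.5 and 541 ± 30.4 (SD, n = 3). Beta ring genes summed to 699, 737 and 660.1 CPM per kb in KMT2D WT and 703, 747 and 651 in KMT2D KO, with means of 699 ± 38.6 and 700.3 ± 48.1. The alpha sums did not overlap between the groups and the beta sums did. The median log2 CPM per kb differed, KMT2D KO minus KMT2D WT, by -0.17 for the beta ring, with overlapping libraries. For the alpha ring it differed by -0.27, without overlap. How far the rings differed thus depended on the measure. Over both rings, 9 of 14 genes were called, 7 lower and 2 higher, with a median of -0.14, which was -0.076 without KMT2D WT replicate 2 and -0.21 when KMT2D WT replicate 3 was left out. The count of calls moved with single libraries: it was 5 of 14 without KMT2D WT replicate 2, the lower calls were 4 without KMT2D WT replicate 2 or KMT2D KO replicate 3, and there was no higher call without KMT2D KO replicate 1 or 2, with library size alone or with chromosome medians removed. Without KMT2D WT replicate 1 or 2 there was 1 higher call.

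**Figure D2:**
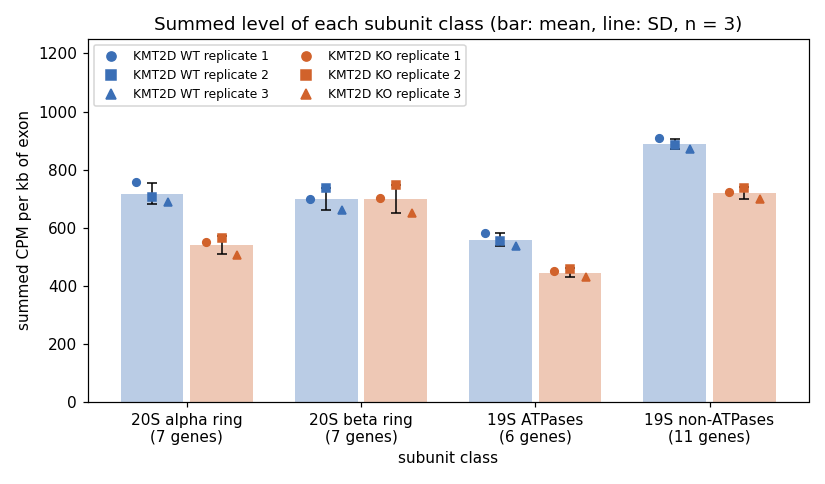
Summed level of the 4 subunit classes in CPM per kb of exon, with bars for the group mean, black lines for the SD (n = 3) and a symbol for each library, blue for KMT2D WT and orange for KMT2D KO. The alpha ring, the 19S ATPases and the other 19S subunits are lower in all KMT2D KO libraries, while the beta ring means are 699 and 700.3.

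Most ATPases of the 19S base fell. They form the ring that unfolds the substrate and opens the gate of the core. Of 6 genes, 5 were called lower and Psmc5 was not called (-0.07), with a median of -0.37. Psmc1 (chromosome 12, 101350541 to 101361574) gave 159, 139 and 148 CPM in KMT2D WT against 108, 103 and 103 CPM in KMT2D KO, with no overlap. The log2 fold change was -0.51 (SE 0.06, adjusted p = 2e-06), beside a chromosome median of -0.14. Psmc4, Psmc2 and Psmc6 fell by 0.50, 0.40 and 0.33, and Psmc2 was not called once the chromosome 5 median of -0.36 was removed (-0.05). Psmc3 gave 199, 186 and 177 against 171, 178 and 162 CPM, overlapping, with a log2 fold change of -0.14 whose adjusted p of 0.04998 was just under the threshold. It was not called in 6 of 15 alternatives, in 5 of them with 1 library left out (each library except KMT2D WT replicate 3).

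The other 11 subunits of the 19S particle included the largest fall of all members. Of these, 6 were called lower, 1 higher and 4 not, with a median of -0.33. Psmd2, a scaffold of the base (chromosome 16, 20651725 to 20663487), gave 427, 397 and 417 CPM in KMT2D WT against 209.9, 215 and 208 CPM in KMT2D KO. The groups lay far apart, and the log2 fold change was -0.97 (SE 0.05, adjusted p = 2.1e-10), and it was called in all 15 alternatives. The chromosome 16 median was -0.44, and with it removed Psmd2 was at -0.53. Psmd1, the other large scaffold of the base, gave a log2 fold change of -0.42, and the ubiquitin receptor Psmd4 gave -0.15 and was not called.

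Lid subunits were split in their calls, although 7 of 8 had negative log2 fold changes. Psmd6, Psmd14, Psmd12 and Psmd13 fell by 0.64, 0.52, 0.36 and 0.33 on the log2 scale, and Psmd14 encodes the deubiquitinase that cuts the ubiquitin chain from the substrate. Psmd8, Psmd7 and Psmd3 were not called, with -0.10, -0.07 and -0.01. The groups did not overlap for Psmd8, which was called lower in 3 of 15 alternatives, and Psmd7 was in 2. Of the base genes not called, Psmd4 was called lower in 3 alternatives and Psmc5 in 2. Psmd11 (chromosome 11, 80242117 to 80285635), a scaffold subunit of the lid, was the 1 regulatory particle gene that rose. It gave 87.8, 89.7 and 85.6 CPM in KMT2D WT against 117, 112 and 113 CPM in KMT2D KO. The groups did not overlap, the log2 fold change was 0.37 (SE 0.05, adjusted p = 1.4e-05), and the call held in all 15 alternatives.

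**Figure D3:**
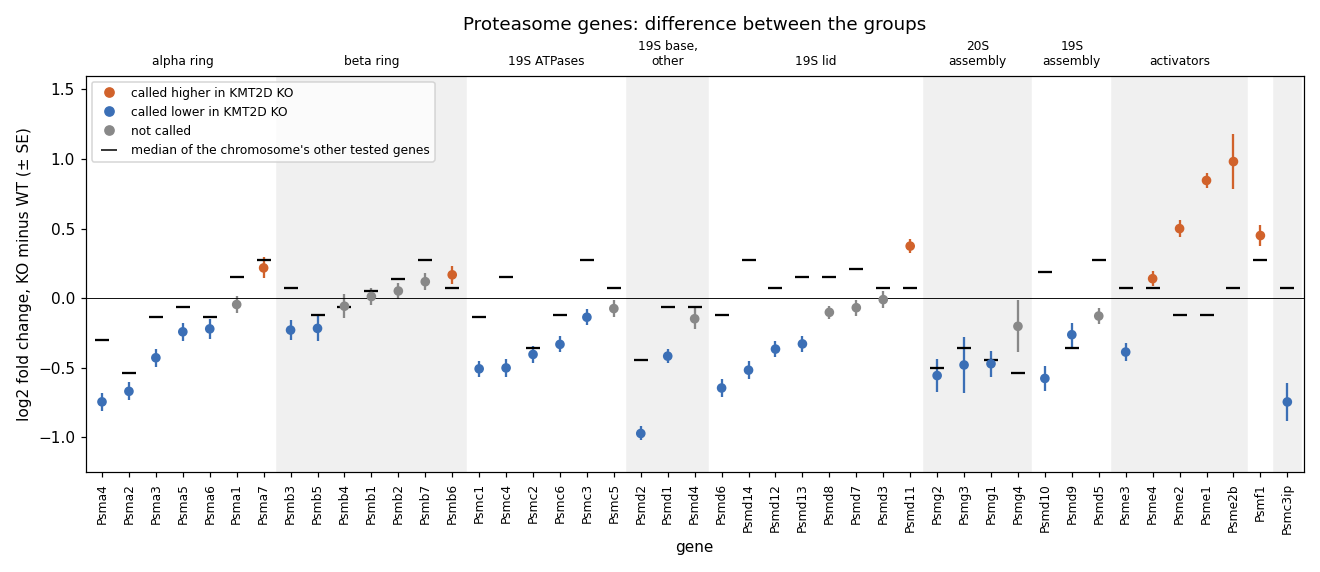
Log2 fold change of each tested member with its SE, grouped by role, in orange where called higher in KMT2D KO, blue where called lower and grey where not called; the black dash is the median of the other tested genes of the same chromosome. In the 19S classes 16 of 17 points lie below 0, and 4 of the 5 activators lie above it.

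Core and regulatory particle were then compared. The core had 7 of 14 genes lower with a median log2 fold change of -0.14, and the regulatory particle 11 of 17 lower, 1 higher, with a median of -0.33. Core genes summed to a level 12.4% lower in KMT2D KO and 19S genes to one 19.5% lower. The balance of the particles was expressed in each library as the median log2 CPM per kb of the core minus that of the regulatory particle. It was 0.25, 0.22 and 0.13 in KMT2D WT and 0.25, 0.34 and 0.20 in KMT2D KO, with means of 0.20 ± 0.06 and 0.26 ± 0.07 (SD, n = 3). The libraries overlapped and the difference of 0.06 was smaller than the SD within either group, so on this scale the groups did not separate. It also depended on single libraries, with 0.023 without KMT2D KO replicate 2, 0.092 without KMT2D KO replicate 3 and 0.026 when KMT2D WT replicate 3 was left out. On other scales the groups did separate. The log2 ratio of the summed levels, core over 19S, was -0.03, 0.01 and -0.07 in KMT2D WT and 0.10, 0.13 and 0.04 in KMT2D KO, a difference of 0.12 without overlap. Without scaling by length the difference of medians was 0.15, and the highest KMT2D WT library (-0.297) lay just below the lowest KMT2D KO library (-0.295). Whether the balance of core and 19S transcripts differed therefore depended on the measure, and none of these carries a test.

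Assembly factors lay lower in KMT2D KO, and so did the chromosomes that carry several of them. Of 7 genes, 5 were called lower and Psmg4 (-0.20) and Psmd5 (-0.13, adjusted p = 0.056) were not, with a median of -0.47, which became -0.05 after each gene's chromosome median was subtracted. Psmd10, also known as gankyrin, which assists assembly of the 19S base, lies on chromosome X with a median of 0.19. It gave 33.5, 31.4 and 28.3 CPM in KMT2D WT against 21.8, 22.4 and 18.4 CPM in KMT2D KO, without overlap, and the log2 fold change was -0.58 (SE 0.09, adjusted p = 5.1e-05). Psmd9, also an assembly factor of the base, gave 29.9, 26.8 and 24.6 against 21.3, 23.4 and 23.2 CPM. Its log2 fold change was -0.26 (adjusted p = 0.014), above the chromosome 5 median of -0.36, and it was 0.10 with that median removed. The call was also lost without KMT2D WT replicate 1 or KMT2D KO replicate 1. Of the chaperones of the core, Psmg1, Psmg2 and Psmg3 had log2 fold changes of -0.47, -0.56 and -0.48 on chromosomes with medians of -0.44, -0.50 and -0.36, and none of the 3 was called with those removed. Psmg3 had at most 6.04 CPM in any library and overlapping groups (adjusted p = 0.047), and its call was lost in 7 of 15 alternatives, among them DESeq2 and leaving out KMT2D WT replicate 1 or 2 or KMT2D KO replicate 1 or 2. Psmd5 was called lower in 7 alternatives, among them library size alone and the chromosome median removed.

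The activators moved in opposite directions. Psme1 and Psme2, the PA28 alpha and beta subunits of the interferon-inducible cap, rose, and Psme3, the nuclear PA28 gamma, fell. Psme1 (chromosome 14, 56197331 to 56200364) gave 90.8, 90.8 and 99.4 CPM in KMT2D WT against 169.8, 169.7 and 166 CPM in KMT2D KO. The libraries of each group lay close together and the groups far apart, and the log2 fold change was 0.85 (SE 0.05, adjusted p = 2.8e-09). Psme2 (chromosome 14, 56206277 to 56209938) gave 84.3, 83.8 and 75.8 against 116, 120.4 and 108 CPM, and its log2 fold change was 0.50 (SE 0.06, adjusted p = 3.9e-06) without overlap. Both were called in all 15 alternatives, and their chromosome median was -0.12. Psme3 (chromosome 11, 101177565 to 101184844) gave 123, 127 and 145 CPM in KMT2D WT against 103, 100.3 and 98.4 CPM in KMT2D KO, and the log2 fold change was -0.39 (SE 0.06, adjusted p = 7.3e-05). It too was without overlap and called in all 15.

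Per length, Psme1 stood at 1.91 ± 0.07 times Psme3 in KMT2D WT and at 4.49 ± 0.06 times in KMT2D KO (SD, n = 3). Psme2b, a gene closely similar to Psme2, gave 1.92, 2.20 and 1.498 against 4.03, 3.89 and 3.22 CPM, and its log2 fold change was 0.98 (SE 0.20, adjusted p = 0.00046). Near-identical sequence covered 94.9% of Psme2b and 82.5% of Psme2, and 261 bases of Psme2b overlap the exons of 9930111J21Rik1 on the same strand. Neither the level nor the change of Psme2b can therefore be assigned to it with certainty. Because of the near-identical sequence, the level and the rise of Psme2 are uncertain too. Psme4, the PA200 activator, gave 153, 138 and 150.1 against 162, 156 and 168 CPM. That log2 fold change of 0.14 (adjusted p = 0.036) was not called in 7 of 15 alternatives, among them library size alone, the chromosome median removed, and KMT2D WT replicate 2 or KMT2D KO replicate 1 or 3 left out. Psmf1, the inhibitor PI31 (chromosome 2, 151541798 to 151567046), gave 24.3, 26.5 and 24.5 CPM in KMT2D WT against 36.01, 35.6 and 31.2 CPM in KMT2D KO. It rose without overlap, and the log2 fold change was 0.45 (SE 0.08, adjusted p = 0.00012), and with the chromosome 2 median removed it was 0.17 and not called (adjusted p = 0.065).

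The inducible counterparts of the catalytic subunits rose, and their log2 fold changes were above those of all members. Psmb8 (beta5i) gave 30.2, 26.5 and 24.5 CPM in KMT2D WT against 188, 197 and 177 CPM in KMT2D KO, a log2 fold change of 2.79 (adjusted p = 1.2e-13). Psmb9 (beta1i) rose by 2.84 and Psmb10 (beta2i) by 1.23 on the same scale, without overlap. Per length, Psmb8 stood at 0.505 ± 0.047 times Psmb5 in KMT2D WT and at 4.06 ± 0.20 times in KMT2D KO (SD, n = 3). The order of Psmb5 and Psmb8 was therefore the opposite in the 2 groups, although near-identical copies cover 88.4% of the Psmb5 transcript and its counts may be too low. Psmb9 stood at 0.0284 ± 0.0010 times Psmb6 in KMT2D WT and 0.181 ± 0.006 times in KMT2D KO. Psmb10 stood at 0.206 ± 0.021 times Psmb7 in KMT2D WT and 0.448 ± 0.015 times in KMT2D KO, so for these pairs the constitutive gene stayed the more abundant one.

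**Figure D4:**
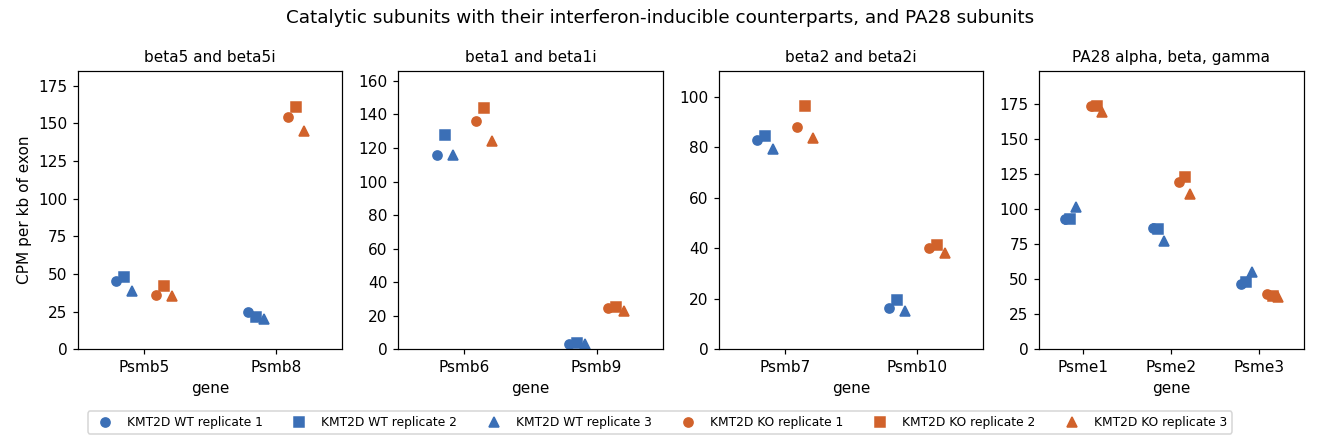
CPM per kb of exon, on axes that start at 0, for each catalytic subunit beside its inducible counterpart and for the 3 PA28 genes, with 1 symbol per library, blue for KMT2D WT and orange for KMT2D KO. Psmb8 passes Psmb5 in KMT2D KO, Psmb9 and Psmb10 stay below Psmb6 and Psmb7, and Psme1 and Psme2 move up while Psme3 moves down.

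Promoter sequences are shown for the member with the largest fall (Psmd2), for a pair of catalytic genes that moved in opposite directions (Psmb5 and Psmb6) and for the PA28 pair that rose together. They are from RefSeq (GRCm38.p6, not the mm9 build of the counts), 130 bases before and 20 from the start of the transcript on, 5′ to 3′. Capitals mark matches, on either strand, to TGACNNNGC, the core of the antioxidant response element to which the proteasome regulator Nfe2l1 is known to bind, or to GAAANNGAA, the core of the interferon-stimulated response element.
Psmd2 (chr16:20651522-20651671, plus strand): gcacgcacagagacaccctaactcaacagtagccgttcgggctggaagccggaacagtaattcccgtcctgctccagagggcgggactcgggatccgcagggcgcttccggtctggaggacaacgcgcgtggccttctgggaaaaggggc
Psmb5 (chr14:54617976-54618125, minus strand): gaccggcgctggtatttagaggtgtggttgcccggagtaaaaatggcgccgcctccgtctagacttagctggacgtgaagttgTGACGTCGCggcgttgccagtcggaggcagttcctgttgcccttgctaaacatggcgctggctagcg
Psmb6 (chr11:70525227-70525376, plus strand): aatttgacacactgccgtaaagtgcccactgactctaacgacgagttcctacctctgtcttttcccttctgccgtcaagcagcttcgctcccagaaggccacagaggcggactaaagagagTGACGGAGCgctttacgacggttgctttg
Psme1 (chr14:55578364-55578513, plus strand): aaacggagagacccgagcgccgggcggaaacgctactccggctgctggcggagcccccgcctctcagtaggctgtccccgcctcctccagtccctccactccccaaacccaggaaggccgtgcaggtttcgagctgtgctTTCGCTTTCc
Psme2 (chr14:55591002-55591151, minus strand): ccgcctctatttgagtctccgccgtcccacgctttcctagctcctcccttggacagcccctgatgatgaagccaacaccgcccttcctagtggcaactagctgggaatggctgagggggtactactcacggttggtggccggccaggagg

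The first base of the TGACNNNGC match lies 47 bases before the start in Psmb5 and 9 before it in Psmb6. The call of each of these genes was lost in 5 of 15 alternatives, and the part of the match in their levels was not tested. The match of Psme1 begins 10 bases after the start and is GAAANNGAA on the opposite strand, and these letters do not occur in the windows of Psme2. Windows of 300 bases (250 before the start, 50 from it on) were at hand for 39 of 47 members, with 42 windows in all. TGACNNNGC was found in 6 of the 42 (14.3%) and in 12.4% of 32851 promoter windows of all genes. CCAAT, the letters of the NF-Y site, was found in 14 (33.3%) against 37.4%, and GAAANNGAA in 7 (16.7%) against 8.56%. Besides Psme1, GAAANNGAA lay in windows of Psmb3, Psmc2 and Psmd9, which were called lower. It also lay in windows of Psmb4, Psmd4 and Psmg4, which were not called, and its part in these levels was not tested. In the 13865 windows of tested genes the shares were 14.3% for TGACNNNGC, 37.2% for CCAAT and 7.13% for GAAANNGAA. GAAANNGAA was found in 0 of 3 windows of Psmb8, Psmb9 and Psmb10 and in 13 of 25 windows of interferon-stimulated genes. All these shares are descriptions on both strands, with overlapping matches counted once per window.

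Genes that act with the proteasome were read from lists of the pathway. Among 12 genes of its transcriptional control, 4 (33.3%) were called, each lower, and 8 were not called. Of all tested genes 71.0% were called and 35.5% were called lower, so lower calls in this list were near the share of all genes. Nfe2l1, the factor that is known to raise proteasome genes when proteasome activity is short, gave 892, 909 and 922 CPM in KMT2D WT against 554, 555 and 573 CPM in KMT2D KO. The groups lay far apart, and the log2 fold change was -0.69 (SE 0.05, adjusted p = 4.3e-09). Maff, a small Maf partner of such factors, was at 109 ± 3.13 CPM in KMT2D WT against 20.8 ± 1.62 CPM in KMT2D KO (SD, n = 3) and fell by 2.38 on the log2 scale. Mafg and Mafk, the other small Maf genes of the list, were not called (-0.08 and 0.13). Ngly1, which de-glycosylates Nfe2l1 for its activation, and Nfyb fell by 0.60 and 0.30, and Nfe2l2 was not called (0.02).

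Of 3 further subunits and assembly proteins without a Psm symbol, Pomp, the maturation factor of the core, fell from 105 ± 3.16 to 63.6 ± 6.17 CPM (-0.72, adjusted p = 2.2e-07). Shfm1, a small lid subunit, gave 0.19 (adjusted p = 0.026), called in 9 of 15 alternatives (not without KMT2D WT replicate 1 or 2 or KMT2D KO replicate 1 or 2) and at -0.23 with the chromosome 6 median of 0.42 removed, and the ubiquitin receptor Adrm1 was not called (-0.11). Among 11 proteins that bind the proteasome, 2 were higher and 5 lower, with a median of -0.12. The deubiquitinase Usp14 fell by 0.82 and the stress-inducible Zfand2a by 1.36, while Zfand5, which stimulates the 26S form, rose by 1.25 and the nuclear import factor Akirin2 by 0.48. Among 15 genes of ubiquitin supply and shuttling, 7 were higher and 5 lower, with a median of -0.07. Lower calls were 45.5% of the proteins that bind the proteasome and 33.3% of the supply genes, beside 35.5% of all genes. The shuttle Ubqln1 and the E1 enzyme Uba6 fell by 0.88 and 0.62. Of 28 interferon-stimulated genes all 28 were called higher, with Mx1 at 7.02 and Oas1a at 6.65, beside 35.4% of all genes called higher.

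Psma8, the testis form of an alpha subunit, and Psmb11, the thymus form of a beta subunit, were not tested. Psma8 had 2, 0 and 1 fragments in KMT2D WT and 7, 4 and 0 in KMT2D KO, and Psmb11 at most 2 in any library, so both were at the limit of detection. Psmc3ip gave 11.1, 9.77 and 10.4 against 6.36, 7.28 and 5.001 CPM, and its log2 fold change was -0.74 (adjusted p = 0.0002). Without it 32 of 44 proteasome genes were called, 24 lower and 8 higher.

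Multi-mapping fragments were left out of the counts, so genes with near-identical copies are uncertain. At 97% identity over at least 100 bases, transcripts of other genes covered 94.9% of Psme2b, 88.4% of Psmb5 and 82.5% of Psme2. They covered 80.7% of Psmb3, 76.5% of Psma5, 52.7% of Psmd11, 45.8% of Psmc1 and 35.1% of Psmb7. The share was 27.0% for Psmg3, 23.4% for Psma3, 17.2% for Psmd13 and under 10% for Psma4, Psmd1 and Psmc3, and some of these transcripts come from the same locus.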

How the data were processed

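Whole-number counts of fragments per gene were deposited by the authors, 1 table for each of the 6 libraries, which per the file headers come from featureCounts 1.5.2 run on exons with mm9 gene models. The command set no strand, multi-mapping or overlap option, and by default featureCounts counts both strands and leaves out multi-mapping fragments and those shared by overlapping genes. STAR and HTSeq are named in the submitters' processing notes, without roles or versions. The counts were used as deposited. Coordinates are mm9 as in the files, counted from 1; a genome of that build was not used here.

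The groups follow the labels. All genes were fitted with edgeR 4.0.16 in R 4.3.3: TMM scaling (factors of 1.037 to 1.044 for KMT2D WT, 0.957 to 0.967 for KMT2D KO), the default low-count filter, the quasi-likelihood F test on the group alone, and Benjamini-Hochberg adjustment over 14579 genes. The SE is the absolute log2 fold change divided by the square root of F. CPM use the scaled library sizes, and levels between genes are CPM per kb of exon. The biological coefficient of variation was 7.94%. Libraries of a group differed by more than sampling noise. No list received a test of its own; counts and medians are descriptions beside those of all genes. The fit was also run on simulated counts in which few genes differed and all had the same dispersion. That run cannot check the scaling where most genes differ, as they do here.

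The members and gene lists were chosen with earlier results of these data known. Values per library are given for the highest and lowest called member of each class, all activators, the inhibitor and members going against their class. They are also given for up to 2 rising and 2 falling genes of each other list. Psma2, Psmb5, Psmg3, Psmb7, Ngly1, Nfyb, Nfe2l2, Adrm1, Mafg and Mafk were added after their values were seen. A few items are not reported here. Alternatives were DESeq2 size factors, library size alone, DESeq2 1.42.0, limma 3.58.1 voom, 2 other low-count filters, robust empirical Bayes, removal of the chromosome median, a block for the replicate number, and each library left out in turn.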

Additional observations from a re-analysis of the deposited data

How the results depend on the processing

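Of the 33 called members, 19 kept their call and direction in each of the 15 alternatives. The number of members called higher was 8, and it was 5 with library size alone, 4 with chromosome medians removed, and 5 to 8 when 1 library was left out. Core genes called were 5 to 9, core genes called lower 4 to 7 and core genes called higher 0 to 3 when 1 library was left out, and no core gene was called higher with library size alone or with chromosome medians removed. The median log2 fold change of the core was -0.25 with library size alone and -0.21 to -0.076 with 1 library left out. That of the 19S particle was -0.44 with library size alone, -0.30 without a low-count filter, -0.35 with a mean of at least 1 CPM, -0.36 with chromosome medians removed and -0.36 to -0.30 with 1 library left out. Lower calls in the 19S particle were 11 in the main fit, 15 with library size alone and 13 with chromosome medians removed. They were 10 without a low-count filter and 10 to 12 with 1 library left out. The difference in core minus 19S level was 0.15 without length scaling, 0.12 as a ratio of sums and 0.023 to 0.092 with 1 library left out. Single genes changed sign as follows: with chromosome medians removed Psma7 was -0.060, Psmd9 0.095, Shfm1 -0.23, Psmb1 -0.041, Psmb2 -0.083, Psmb4 0.0062, Psmb7 -0.16 and Psmg4 0.34. With library size alone Psmb1 was -0.10 and Psmb2 -0.058, Psmb1 was -0.00529 with a mean of at least 1 CPM, and Psmd3 was 0.020 without a low-count filter. When 1 library was left out Psma1 ranged from -0.089 to 0.0034, Psmb1 from -0.022 to 0.085 and Psmd3 from -0.051 to 0.033. Where it is not part of the alternative's own construction, the cause was not tested.

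The same-numbered libraries did not deviate together (correlations of 0.0149, 0.00949 and 0.00846), although each correlated best with its own number, so the replicate numbers were not taken as pairs. With the replicate number as a block 34 members were called, 26 lower and 8 higher, with Psmd4 and Psmd5 gained and Psmg3 lost, and 10368 genes were called in all. Depth limits the readout of Psma8, Psmb11 and Psme2b, and intervals of single counts cover counting error only.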
